A study of Homo sapiens with 6 samples.

Results

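Chemokines and secreted inflammatory cytokines were examined in NCI-H1975 cells before and after they acquired resistance to WZ4002. The members were all probe sets whose single annotated gene was a CXCL or CCL chemokine, CX3CL1, or a cytokine of a set list (IL1A, IL1B, IL1RN, IL6, IL7, IL11, IL15, IL18, IL24, IL32, IL33, LIF, CSF1, CSF3, TNF, LTA, LTB and TSLP). The rule gave 68 of 22215 tested probe sets and 48 of 11963 genes; for TSLP no probe set was analysed here, and 3 probe sets that name several genes, with CCL3, CCL14 or CCL15 among them, did not count. Where a gene had several probe sets of its own, the brightest on average over the 6 arrays stood for it.

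NCI-H1975 is an established human line of non-small cell lung cancer that carries mutant EGFR, and WZ4002 is an inhibitor of that kinase. The parental group was the drug-sensitive line, with 3 samples. The WZR6 group, also with 3 samples, was clone number 6, picked after culture in rising WZ4002, so the resistant state was represented by a single clone. Both groups grew in RPMI with 5% serum and were harvested in exponential growth; the labels do not say whether the drug was present at harvest. Each sample was measured on its own expression array as total RNA, with n = 3 per group throughout. Nothing in the labels says that replicates came from separate cultures, so p-values measure the spread between these samples, which may be technical.

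Chemokines are small secreted proteins that direct the movement of leukocytes through G protein-coupled receptors. Those that bind CXCR2 attract neutrophils, and those that bind CXCR3 attract activated T cells and NK cells and are typical products of interferon signaling. Tumor cells of the lung often secrete chemokines and cytokines of the IL-1, IL-6 and TNF families, whose genes are commonly controlled by NF-kB, AP-1 and interferon-regulated factors.

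The labelled cell type was checked against marker genes. The leukocyte markers PTPRC and MS4A1 lay at mean log2 intensities of 4.20 and 4.57 in parental cells and 4.17 and 4.51 in WZR6, under the lower quartile of the table's log2 values, 5.27. Of 16 leukocyte markers, 2 were lower and 0 higher in WZR6 (12.5% called, against 46.0% of all genes). The lower ones were CD14, with means of 8.45 in parental samples and 7.49 in WZR6, and ITGB2, with 6.86 and 5.49. The summed log2 intensity of the 16 was 86.0 to 87.8 in parental samples and 83.4 to 85.6 in WZR6. While 8 of 16 lay below the lower quartile in both groups, others, such as LAPTM5, CD4 and ITGAM, lay above it and were not called. Of 14 fibroblast and endothelial markers, 2 were higher, CDH5 (difference 0.89) and PDGFRB (0.66), and 2 lower, COL1A1 (-3.0) and COL1A2 (-0.56). COL1A1 and COL1A2 had parental means of 9.6 and 10.29. The sums of the 14 were 82.9 to 83.5 in parental samples and 80.7 to 81.6 in WZR6. Of the 8 epithelial markers, 7 were lower in WZR6 and 0 higher: EPCAM (difference -6.26), CDH1 (-5.69), NKX2-1 (-2.14), KRT19 (-1.71), EGFR (-0.81), KRT7 (-0.77) and KRT8 (-0.22). KRT18, at 14.14 and 14.02, was not called. Calls covered 28.6% of the 14 fibroblast and endothelial markers and 87.5% of the 8 epithelial ones, against 46.0% of all genes. The epithelial markers summed to 95.3 to 95.4 in parental samples and 77.3 to 77.8 in WZR6, and the part of this difference in the members' results was not tested. The table holds no detection calls.

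Promoter sequences are shown first for 8 CXCL chemokine genes and the cytokine gene IL32, because genes that fell and genes that rose among them share a short letter pattern. The RefSeq table (GRCh38.p14) matched 34 of the 48 member genes: all 10 that fell, 5 of the 9 that rose and 19 that were not called. CCL2, CCL5, CSF1 and IL7, which rose, were not matched. The windows below run 5′ to 3′ on each gene's strand, from 110 to 31 bases before the start (230 to 151 for CXCL10). Capitals mark matches to GGNNTTTCC, a pattern like the NF-kB site, or, in CXCL10, first a match to a pattern like the interferon-stimulated response element (ISRE): TTTC, any 2 bases, TTTC. Both strands were searched, and the capitals in CXCL10 and CXCL11 match on the opposite strand, so they read as the reverse complement of the pattern.
CXCL1: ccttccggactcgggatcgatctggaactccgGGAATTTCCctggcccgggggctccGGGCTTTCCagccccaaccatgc
CXCL2: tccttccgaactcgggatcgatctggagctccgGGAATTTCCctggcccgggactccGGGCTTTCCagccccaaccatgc
CXCL3: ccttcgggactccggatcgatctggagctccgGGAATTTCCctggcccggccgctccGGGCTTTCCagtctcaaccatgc
CXCL5: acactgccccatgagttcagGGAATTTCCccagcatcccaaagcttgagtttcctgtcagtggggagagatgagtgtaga
CXCL6: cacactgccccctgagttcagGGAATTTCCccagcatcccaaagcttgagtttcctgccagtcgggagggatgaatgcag
CXCL8: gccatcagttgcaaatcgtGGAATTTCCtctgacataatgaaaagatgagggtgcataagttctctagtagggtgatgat
CXCL10: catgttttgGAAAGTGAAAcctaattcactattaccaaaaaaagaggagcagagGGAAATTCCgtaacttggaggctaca
CXCL11: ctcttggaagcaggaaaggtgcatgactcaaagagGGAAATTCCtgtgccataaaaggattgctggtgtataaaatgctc
IL32: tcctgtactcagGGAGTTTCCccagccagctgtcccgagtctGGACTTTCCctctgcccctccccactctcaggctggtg

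These windows lie at chr4:73869283-73869362 (+) for CXCL1, chr4:74099226-74099305 (-) for CXCL2, chr4:74038720-74038799 (-) for CXCL3, chr4:73998708-73998787 (-) for CXCL5, chr4:73836568-73836647 (+) for CXCL6 and chr4:73740459-73740538 (+) for CXCL8. Those of CXCL10 and CXCL11 lie at chr4:76023648-76023727 (-) and chr4:76036101-76036180 (-), and that of IL32 at chr16:3065293-3065372 (+). All are upstream of the annotated start. Aligned end to end, the window of CXCL1 shared 76 of 80 bases with that of CXCL2 and 73 of 80 with that of CXCL3. CXCL5 and CXCL6 shared 73 of 80 bases, while CXCL8 shared 37 of 80 with CXCL1 and 46 of 80 with CXCL6.

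The neutrophil-attracting CXCL genes other than CXCL8 fell in WZR6, the interferon-type CXCL10 and CXCL11 rose, and the cytokines split as well. Over all members, 9 of 48 genes were higher and 10 lower in WZR6 at an adjusted p under 0.05 (limma, Benjamini-Hochberg over all probe sets), and 29 were not called. That is 39.6% called, against 46.0% of all genes (23.3% higher and 22.7% lower), so the share of called members did not exceed the background. Changes of at least 2-fold were called for 6 members upward (12.5%, against 1.36% of all genes) and 4 downward (8.33%, against 3.42%). The median difference of the members was 0.08 log2, against 0.02 over all genes, and the median size regardless of sign was 0.17 against 0.18. Groups did not overlap for 23 of 48 members, or 47.9%, against 56.3% of all genes. By probe set, 13 of 68 were higher and 13 lower (38.2% called, against 41.1% of all probe sets, 21.6% higher and 19.5% lower), and the 10 members with the largest differences, each at least 2-fold, were CXCL11, IL32, IL7, CXCL10, CCL5, CXCL6, CXCL1, IL24, CCL2 and CCL20. Without _x_at and _s_at probe sets, types that can detect several transcripts, 5 members were higher, because CCL2, IL32, LTB and TNF then had no probe set left. These are bulk measurements, in which fewer cells with a transcript and less of it per cell cannot be told apart.

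**Figure D1:**
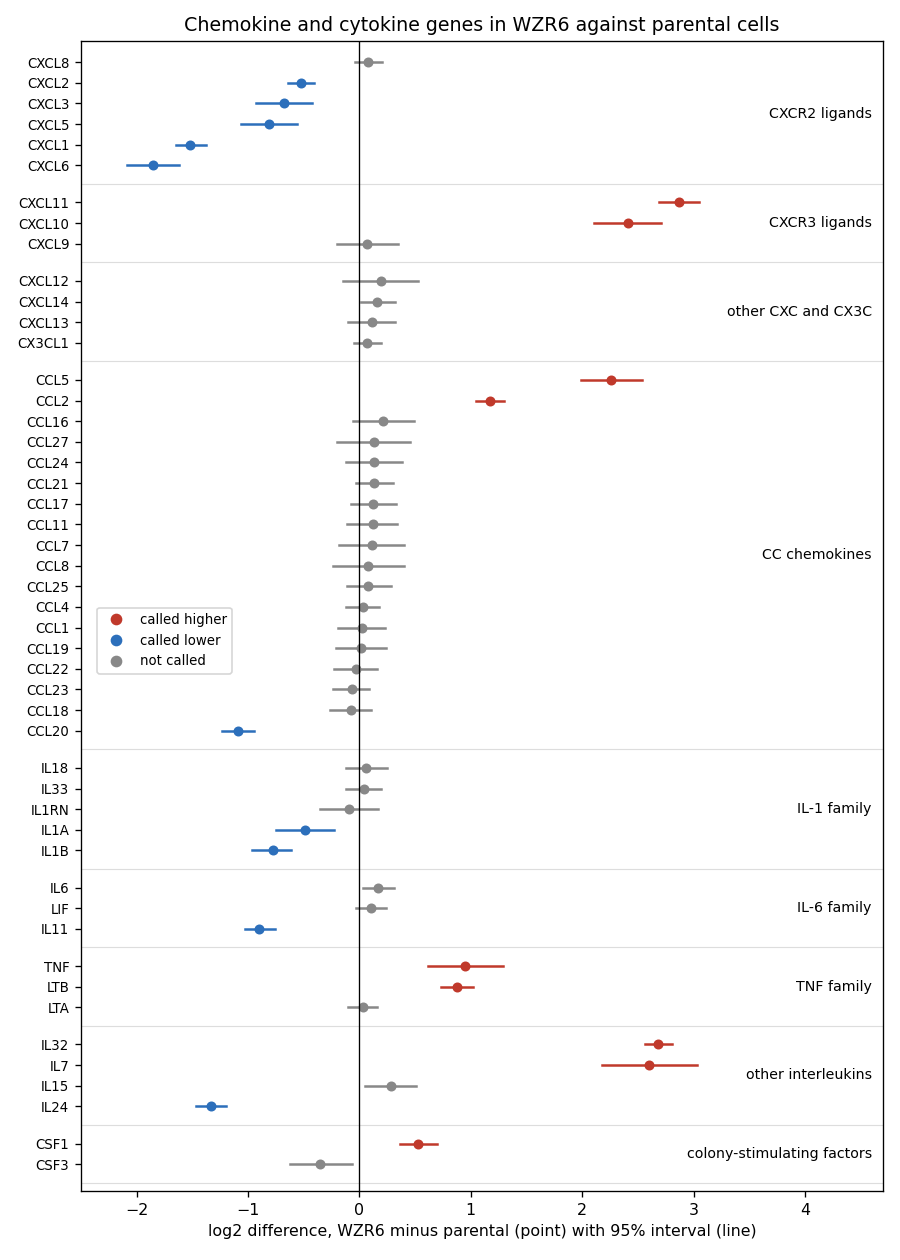
Log2 difference (WZR6 minus parental, x axis) of the 48 member genes, grouped by receptor or family, with 95% intervals; red is called higher, blue called lower and grey not called. Of the CXCR2 ligands 5 of 6 lie to the left of 0, whereas CXCL10 and CXCL11 lie at 2.41 and 2.87.

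The CXCR2 ligands are chemokines that recruit neutrophils and promote vessel growth. Of the 6 that the member rule admits by symbol, 5 fell in WZR6 and CXCL8 was not called, with a median difference of -0.74. CXCL6 had log2 intensities of 11.61, 11.55 and 11.80 in parental samples and 9.76, 9.68 and 9.98 in WZR6. Every parental value lay above every WZR6 value, and the fold was 3.61 (95% interval 3.07 to 4.24; adjusted p = 1.62e-05 in limma). CXCL1, also called GRO-alpha, stood at 12.14, 12.09 and 12.25 in parental samples and 10.63, 10.61 and 10.69 in WZR6. The groups were again separate, and CXCL1 fell by 1.52 ± 0.06 log2 (SE), or 2.86-fold.

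CXCL5 stood at 9.77, 9.75 and 9.92 in parental samples against 8.87, 8.92 and 9.24 in WZR6. It fell by 0.81 ± 0.11 log2 (SE; adjusted p = 8.43e-04), with the third WZR6 sample nearest to the parental values. A second CXCL5 probe set fell by 0.65, and the third, below the lower quartile in both groups, differed by -0.02 and is the one left without _x_at and _s_at probe sets. CXCL3 stood at 8.84, 8.84 and 9.09 against 8.29, 8.07 and 8.39, without overlap, and fell by 0.68 ± 0.11 log2 (SE). CXCL2 fell by less than 1.5-fold, with a difference of -0.52 ± 0.05 log2 (SE; 1.44-fold). The brightest probe sets of CXCL2, CXCL5 and CXCL8 are of the _x_at type, and CXCL1, CXCL2 and CXCL3 are near copies of each other, so the sizes of their separate differences are uncertain.

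CXCL8, interleukin-8, is the best known neutrophil chemokine. Its values were 12.36, 12.33 and 12.41 in parental samples and 12.46, 12.40 and 12.49 in WZR6, groups that overlap. The difference was 0.08 (95% interval -0.04 to 0.20; adjusted p = 0.242), an interval whose lower bound lies above the difference of each of the other 5 CXCR2 ligands. A dimmer CXCL8 probe set of the _s_at type was called higher, by 0.26 ± 0.08 log2 (SE; adjusted p = 0.042), and the mean of both probe sets was called too, at 0.17 (adjusted p = 0.0322 in limma).

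Among the CXCR3 ligands, CXCL10 and CXCL11 rose and CXCL9 was not called. CXCL11 stood at 4.59, 4.84 and 4.73 in parental samples and 7.67, 7.56 and 7.53 in WZR6. It rose 7.29-fold (6.44 to 8.27; adjusted p = 9.39e-07), with all WZR6 values far above the parental ones, and its second probe set rose by 1.90 log2. CXCL10, known as IP-10, stood at 4.99, 4.62 and 4.96 against 7.31, 7.42 and 7.08, and rose 5.31-fold (4.32 to 6.53). Both had a parental mean below the lower quartile of the array, so background limits these folds, and the call of CXCL10 ended when every log2 value under the overall median, 7.38, was raised to it (a floor). CXCL11 was still called with the floor, but its difference dropped from 2.87 to 0.21; without _s_at probe sets it was 1.90. CXCL9, a related chemokine that responds chiefly to interferon gamma, lay at 4.50 ± 0.16 (SD) and 4.57 ± 0.18, near background in both groups.

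**Figure D2:**
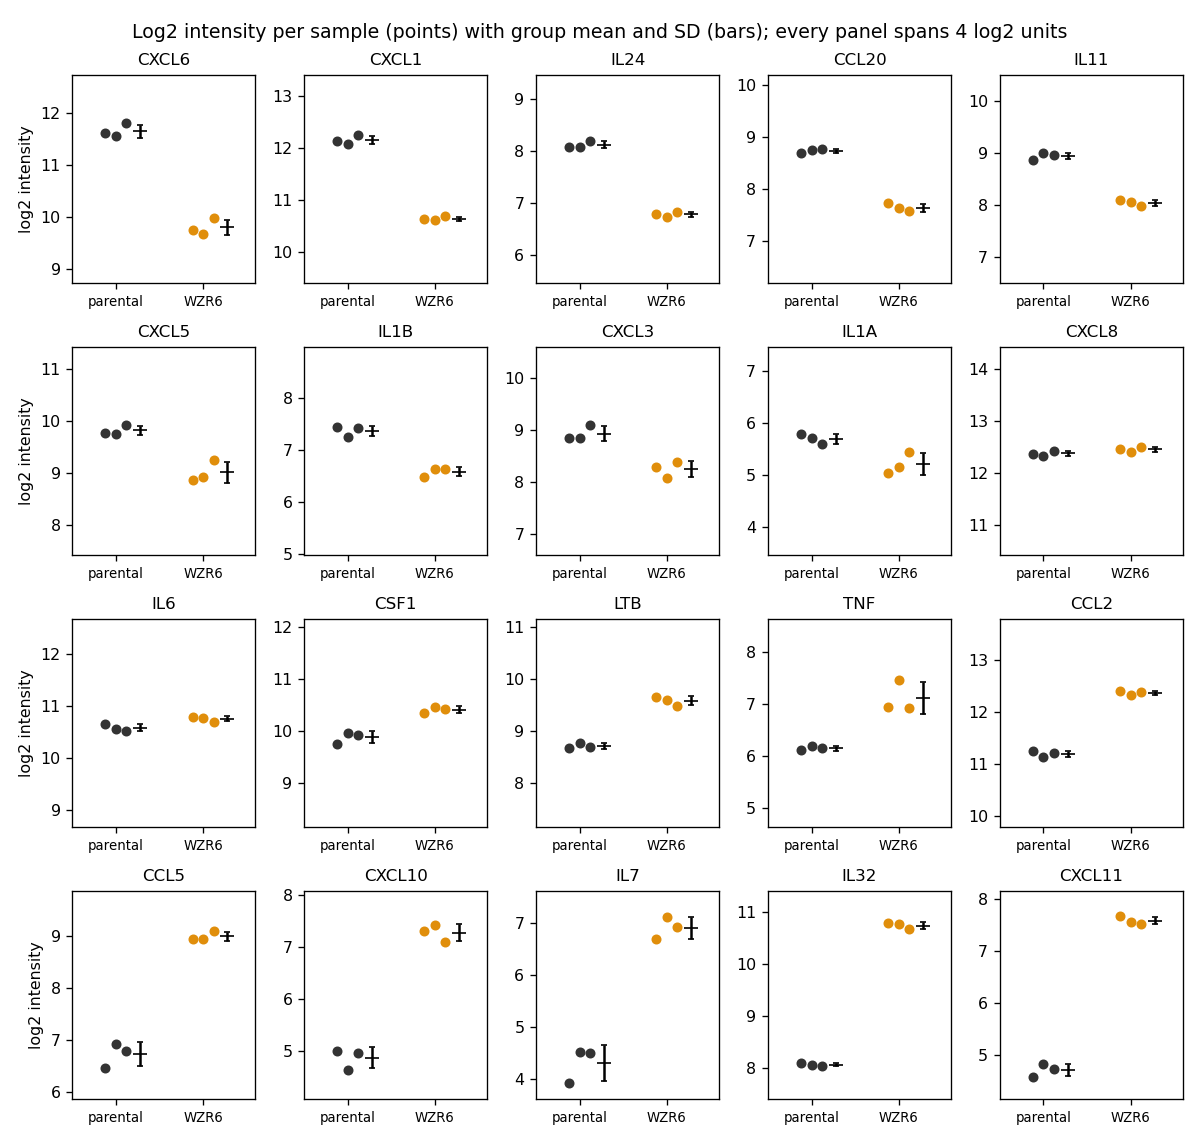
Log2 intensity (y axis) of the 20 genes described in full, 1 panel per gene ordered by their difference, with 3 parental samples (black) and 3 WZR6 samples (orange) as points and the mean and SD as bars; every panel spans 4 log2 units. The groups overlap in the panel of CXCL8 and in no other panel.

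The remaining CXC and CX3C chemokines, CXCL12, CXCL13, CXCL14 and CX3CL1, were not called, with differences between 0.07 and 0.19. CX3CL1, a membrane-anchored chemokine, was well above the lower quartile at 9.14 ± 0.05 (SD) and 9.21 ± 0.01. CXCL13 and CXCL14 had both means below that quartile, and CXCL12 its parental mean.

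Of 18 CC chemokines, which mainly attract monocytes and lymphocytes, 2 rose, 1 fell and 15 were not called. CCL5, or RANTES, is a T cell and monocyte attractant; it stood at 6.48, 6.94 and 6.80 in parental samples and 8.95, 8.95 and 9.10 in WZR6. It rose by 2.26 ± 0.12 log2 (SE; adjusted p = 1.44e-05), and its second probe set rose by 2.49. With the floor, the difference of CCL5 was 1.62, since its parental values lie under the floor. CCL2, the monocyte attractant MCP-1, was bright in parental samples at 11.25, 11.13 and 11.21 and brighter in WZR6 at 12.41, 12.33 and 12.38. The groups did not overlap, and the fold was 2.26 (2.07 to 2.46). CCL20, the ligand of CCR6 that attracts dendritic cells and TH17 cells, moved the other way, from 8.69, 8.75 and 8.76 to 7.73, 7.63 and 7.57. It fell 2.13-fold (1.93 to 2.34; adjusted p = 1.60e-05). The 15 that were not called differed by -0.08 for CCL18 to 0.21 for CCL16, and 9 of the 18 had both means below the lower quartile.

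In the IL-1 family, the agonists IL1B and IL1A fell, while the receptor antagonist IL1RN, IL18 and IL33 were not called; IL1RN was called under 2 of 17 alternatives. IL1B stood at 7.44, 7.26 and 7.43 in parental samples and 6.48, 6.64 and 6.65 in WZR6, with no overlap. It fell by 0.78 ± 0.07 log2 (SE; adjusted p = 1.80e-04); its second probe set differed by -0.52 and was not called (adjusted p = 0.0619). IL1A stood at 5.78, 5.71 and 5.59 against 5.04, 5.14 and 5.44, and fell by 0.49 ± 0.11 log2 (SE), with a WZR6 mean below the lower quartile. Its second probe set, the one left without _s_at probe sets, differed by -0.05. The calls of IL1A and IL1B ended with the floor, under which most of their values lie. The brightest IL1RN probe set differed by -0.09, and 1 of the other 4 was lower by 0.98 log2 (adjusted p = 0.00959), from a parental mean of 5.32 to 4.34. IL18, at 8.69 ± 0.14 (SD) and 8.75 ± 0.06, differed by 0.06.

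Members of the IL-6 family signal through the shared receptor chain gp130. IL6 stood at 10.66, 10.56 and 10.51 in parental samples and 10.79, 10.76 and 10.69 in WZR6. All 3 WZR6 values exceeded all parental values, but the difference was small, 0.17 ± 0.06 log2 (SE), and missed the threshold (adjusted p = 0.0543). It was called under 8 of 17 alternatives, with differences between 0.17 and 0.23 there. IL11 fell, from 8.88, 9.00 and 8.96 to 8.11, 8.06 and 7.99, a fold of 1.86 (1.70 to 2.05; adjusted p = 3.40e-05). Its dimmer probe set fell by 0.28. LIF, at 9.88 and 9.98, was not called (difference 0.10, interval -0.03 to 0.24).

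In the TNF family, TNF and LTB rose and LTA was not called. TNF, the main inflammatory cytokine of the family, stood at 6.10, 6.19 and 6.14 in parental samples and 6.94, 7.45 and 6.91 in WZR6. All WZR6 values were higher, the second most so, and TNF rose by 0.95 ± 0.14 log2 (SE; adjusted p = 0.00157), a call that ended with the floor. LTB, which anchors lymphotoxin at the membrane, stood at 8.68, 8.77 and 8.70 against 9.67, 9.61 and 9.49. It rose 1.83-fold (1.66 to 2.03), without overlap. LTA differed by 0.03 (interval -0.10 to 0.16).

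Among the other interleukins, IL32 and IL7 rose, IL24 fell and IL15 was not called. IL32, an inflammatory cytokine that lacks a mouse counterpart, stood at 8.09, 8.06 and 8.03 in parental samples and 10.79, 10.77 and 10.67 in WZR6. It rose 6.43-fold (5.90 to 7.00; adjusted p = 2.88e-07), with the smallest adjusted p of the members. IL7, a growth factor of lymphocytes, stood at 3.93, 4.53 and 4.50 against 6.71, 7.13 and 6.93. It rose by 2.60 ± 0.18 log2 (SE) from a parental mean below the lower quartile, so that background limits its fold, and its call ended with the floor, above all its values. IL24, a cytokine of the IL-10 family, stood at 8.09, 8.09 and 8.20 against 6.79, 6.74 and 6.84, and fell 2.52-fold (2.30 to 2.77). With the floor, its difference was -0.75 in place of -1.33, since its WZR6 values lie under the floor. IL15 differed by 0.28 ± 0.10 log2 (SE; adjusted p = 0.0585) without overlap, and was called under 9 of 17 alternatives.

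The colony-stimulating factors gave 1 call. CSF1, the growth factor of macrophages, stood at 9.76, 9.97 and 9.93 in parental samples and 10.34, 10.47 and 10.43 in WZR6. It rose by 0.53 ± 0.07 log2 (SE; adjusted p = 0.00104); of its 3 dimmer probe sets 1 rose, by 0.28, and the others differed by 0.15 and 0.06. CSF3, the growth factor of neutrophils, differed by -0.35 (interval -0.62 to -0.07) and was not called, although its adjusted p rounds to 0.05; it was called under 8 of 17 alternatives.

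**Figure D3:**
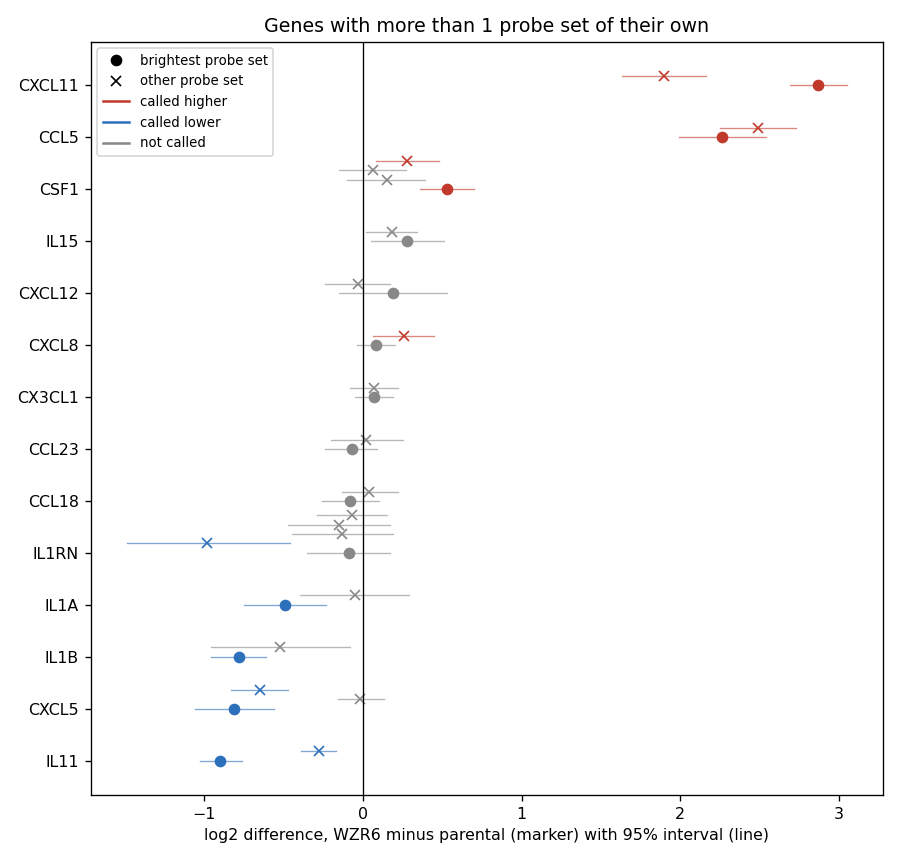
Log2 difference (WZR6 minus parental, x axis) with 95% intervals for the 14 members with more than 1 probe set of their own; dots are the brightest probe set and crosses the others. No member had probe sets called in opposite directions, and the crosses of IL11, CXCL5, IL1A, IL1B and CSF1 lie nearer to 0 than the dot.

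One letter pattern was present in promoters of members that fell and of members that rose. GGNNTTTCC, searched on both strands between 250 bases before and 50 after the start, was present in 13 of the 34 member genes with a promoter, and in 15 of their 43 promoters, against 6.26% of all 35116 promoters. It was present in 6 of the 10 searched members that fell (CXCL1, CXCL2, CXCL3, CXCL5, CXCL6 and CCL20), in 4 of the 5 that rose (CXCL10, CXCL11, IL32 and LTB) and in 3 of the 19 that were not called (CXCL8, IL6 and IL1RN). These counts are a description of the promoters searched. The letters began 78, 77 and 78 bases before the start in CXCL1, CXCL2 and CXCL3, with a second match 53 bases before it in all 3. In CXCL5, CXCL6 and CXCL8 they began 90, 89 and 91 bases before it. CXCL8 thus held the same 9 letters, GGAATTTCC, as the CXCR2 ligands that fell, as its window above shows.

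The ISRE-like pattern was present in 4 of the 34 member genes with a promoter, CXCL9, CXCL10, IL24 and IL1RN. It was held by 5 of the 43 member promoters, against 3.57% of all promoters. TGANTCA, a pattern like the AP-1 site, reads alike on both strands and was counted once. It was present in 9 of the 34 member genes, of which IL11 and IL1A fell and CXCL11 rose. Among promoters, 11 of the 43 of member genes held it, against 7.71% of all promoters. No match to one pattern overlapped a match to another in these promoters. A match to these letters is a description of the sequence; binding was not measured.

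**Figure D4:**
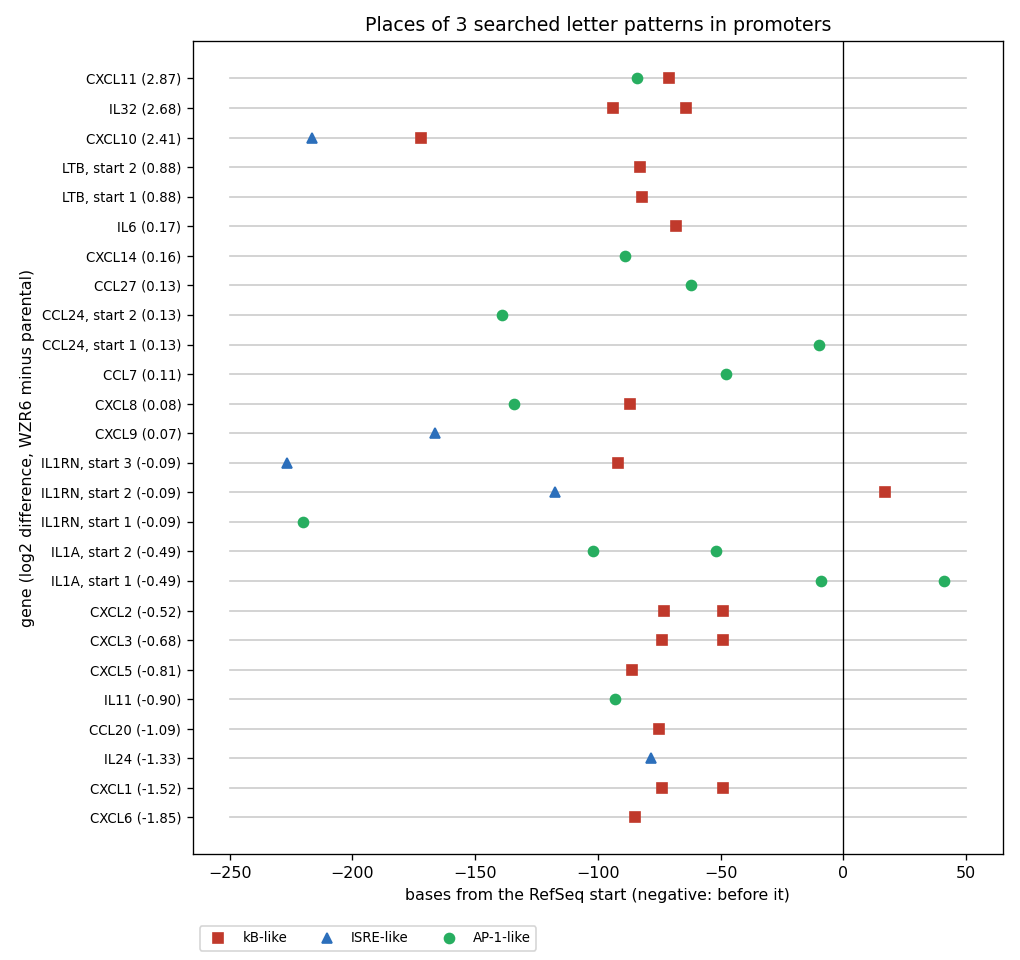
Places of the 3 letter patterns relative to the RefSeq start (x axis, in bases) in member promoters that hold at least 1 match, with the log2 difference of each gene in brackets and genes ordered by it. Squares (kB-like) begin 53 to 98 bases before the start both in the 6 CXCR2 ligands and in CXCL11 and IL32 at the top, and 176 bases before it in CXCL10.

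Many chemokine genes lie side by side, so their neighbours were compared. On chromosome 4, CXCL8, CXCL6, CXCL1, CXCL5, CXCL3 and CXCL2 follow each other in RefSeq order, with CXCL9, CXCL10 and CXCL11 further along. The 50 nearest measured genes that are no members (25 on each side) had a median difference of 0.04 around CXCL1 and CXCL2 and 0.06 around CXCL10 and CXCL11. These medians hide single genes. Among non-members between or just beyond the CXCL genes that fell, EREG differed by -4.06, PF4V1 by -0.57, BTC by -0.39 and PPBP by -0.32. PF4, PPBPP2 and MTHFD2L there differed by 0.01, -0.03 and 0.24. Both means of PPBP and the WZR6 mean of PF4V1 lay below the lower quartile, so background limits their differences. Decreases and increases thus stood in the same stretch of chromosome 4, and CXCL8 and CXCL6, direct neighbours, differed by 0.08 and -1.85. On chromosome 17, CCL2 rose while CCL7, CCL11, CCL8 and CCL1 beside it were not called, and the neighbours had a median of -0.14. Both means of CCL11, CCL8 and CCL1 lay below the lower quartile, and those of CCL7, 5.52 and 5.62, were near it. Background thus limits what these genes can show. CCL5 rose among neighbours with a median of -0.18.

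TNF, LTA and LTB are adjacent on chromosome 6, where 42 of the 50 neighbours differed upward and their median was 0.30. The rises of TNF (0.95) and LTB (0.88) were larger than that median, and LTA lay below it. Some near neighbours differed by as much or more: MICB by 1.44, HCP5 by 1.24 and MICA by 1.02. HLA-B differed by 0.76, and NFKBIL1 and LST1, directly beside the TNF genes, by 0.48 and 0.55. The part of the neighbours' upward differences in the rises of TNF and LTB was not tested. IL6 lies on chromosome 7 among neighbours with a median of -0.50, only 10 of 50 of them above 0.

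**Figure D5:**
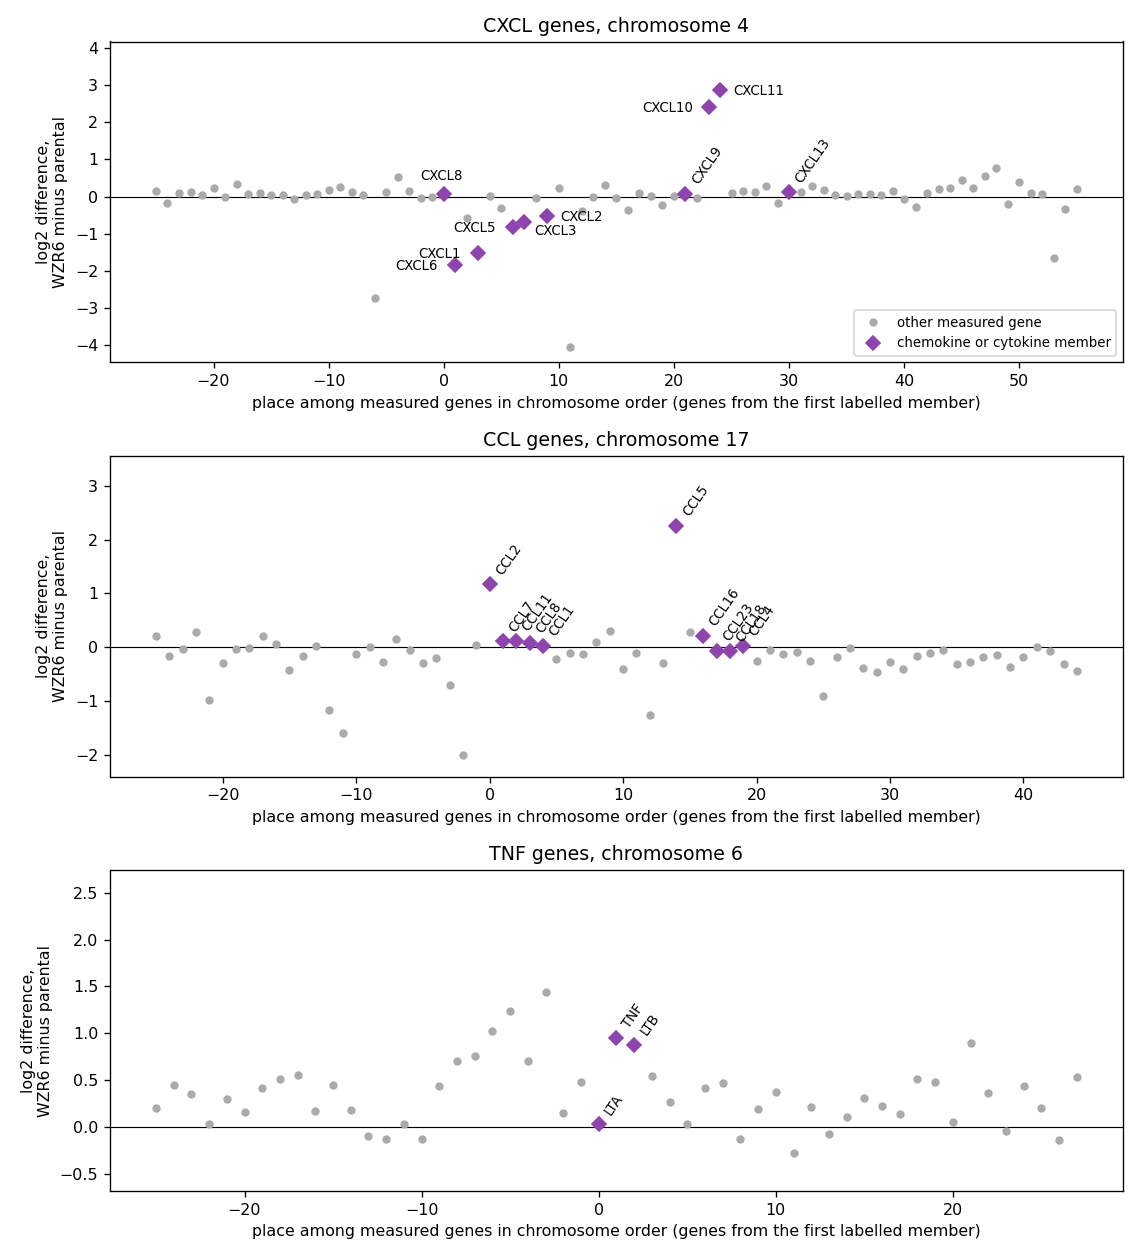
Log2 difference (WZR6 minus parental, y axis) of measured genes in RefSeq order (x axis, place in the order) around the CXCL genes of chromosome 4, the CCL genes of chromosome 17 and the TNF genes of chromosome 6; diamonds are members and grey dots other genes. On chromosome 4 most grey dots lie near 0 while members lie on both sides; on chromosome 6 most grey dots lie above 0.

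Of the 42 measured receptor genes for these ligands, 0 rose and 2 fell by at least 2-fold. These shares, 0.0% and 4.76%, lay near those of all genes, 1.36% and 3.42%. Of 42 measured receptor genes, 8 were higher, 7 lower and 27 not called (35.7% called, against 46.0% of all genes), with a median difference of 0.00 and 14 below the lower quartile in both groups. The count of higher receptors was 4 without parental replicate 2, 5 without WZR6 replicate 1 and 4 to 5 with the floor, above the median level or without _x_at and _s_at probe sets, and that of lower ones was 1 with the floor or above the median level. Receptors with no probe set left in a fit dropped out of its counts. IL7R, the receptor chain of IL7, rose 1.98-fold from 10.27 to 11.25. IL1RL1, the receptor of IL33, fell 2.92-fold, ACKR3, a scavenging receptor of CXCL11 and CXCL12, 2.79-fold, and the IL-1 decoy receptor IL1R2 1.64-fold. All 3 had a WZR6 mean below the lower quartile, so background limits these folds. CXCR2 itself lay at 3.89 and 3.66 and CXCR3 at 6.27 and 6.52, both called with differences of -0.24 and 0.25; both means of CXCR2 lay below that quartile.

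Genes of the NF-kB pathway, which controls many members, were called for 18 of 24 measured genes (75.0%, against 46.0% of all genes). Of the 24, 12 were higher, 6 lower and 6 not called, with a median of 0.22. Without _x_at and _s_at probe sets 6 were higher. In that fit RELA, NFKB2, IKBKB, CASP1, TNFAIP3, REL and ICAM1 lost their brightest probe set. They were then measured by another probe set or not at all. These shares are not matched for brightness: 0 of the 24 lay below the lower quartile in both groups, against 2233 of all 11963 genes. In the fit above the median level, 8029 of 11126 probe sets were called. The list was chosen with earlier results of these data known. TRAF1, a signaling adaptor and NF-kB target, rose 2.68-fold, the adhesion molecule ICAM1 2.19-fold and the inhibitor NFKBIE 2.14-fold, while TNFAIP2, a TNF-induced gene, fell 2.14-fold. Of 27 other secreted factors, 1 was higher, 6 lower and 20 not called (25.9% called), with a median of 0.01. Over the alternatives 1 to 4 of them were higher and 1 to 6 lower. SPP1, osteopontin, fell 7.55-fold, TNFSF10, the death ligand TRAIL, 2.14-fold, PF4V1, a platelet chemokine variant encoded among the CXCL genes of chromosome 4, 1.49-fold, and TNFSF13 1.46-fold. The WZR6 means of SPP1 and PF4V1 lay below the lower quartile, so background limits their folds as well.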

How the data were processed

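Total RNA of 6 samples, grouped by title, was measured on 1 array each. The deposited values are linear intensities made with RMA (background correction, quantile normalization, summary per probe set), per the submitters' processing notes, with no version or settings stated. They ran from 9.87 to 44567, with array medians of 163.2 to 171.1. They were converted to log2 with no pseudocount. After 62 control probe sets were left out, 22215 were tested with limma 3.58.1 in R 4.3.3 (lmFit, eBayes, two-sided, Benjamini-Hochberg, calls under 0.05). The platform annotation named 1 gene for 19064 probe sets, of which 19052 matched RefSeq (GRCh38.p14). Folds are ratios of geometric means. Figures used matplotlib 3.10.9.

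The members, lists and role groups were chosen with earlier results of these data known. Members given in full were called, at least 1.5-fold and without overlap, or among IL6, IL1A, IL1B, TNF, CXCL8, CXCL10, CCL2, CCL5 and CSF1; in each other list, up to 4 called genes with the largest differences were to be named, and further names there were chosen after their values were seen. On simulated data with 22215 probe sets, 70 of 100 changes of 0.6 log2 and 91 of 100 changes of 1 log2 were called, with 14 false calls. No other probe sets were changed there, whereas 9131 were called in the real data. The adjusted p depends on that share, so the simulated counts do not carry over to this comparison. No protein sequence was compared. Precision is limited by having 3 arrays per group.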

Additional observations from a re-analysis of the deposited data

How the results depend on the processing

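The alternatives were other array scalings (cyclic loess, median centring, quantile normalization again), removal of dim probe sets, a floor at the overall median log2 value, 7.38, an intensity trend with robust variance, a replicate block, a fit over 1 probe set per gene, averaged probe sets per gene, leaving out _x_at and _s_at probe sets, and leaving out each sample. All 19 called member genes were called in the same direction in 14 of the 17 alternatives. With the floor, 14 of the 19 were called. The differences of CXCL11, CCL5 and IL24 were then 0.21, 1.62 and -0.75, in place of 2.87, 2.26 and -1.33. CXCL10, IL1A, IL1B, IL7 and TNF lost the call because most or all of their values lie under the floor. Above the median level, 13 of the 19 were tested and all 13 were called. Without _x_at and _s_at probe sets, 14 of the 19 were tested and 12 called; CXCL5 (-0.02) and IL1A (-0.05) were not.

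Counts that moved by over 1.5 times were as follows. Genes with no probe set left in a fit dropped out of its counts. Without _x_at and _s_at probe sets, 5 members were higher, 6 member probe sets were higher and 7 lower, 5 receptors were higher, 3 related secreted factors were lower and 6 NF-kB genes were higher. With the floor, 7 member probe sets and 4 receptors were higher, and 1 receptor and 2 secreted factors were lower. Above the median level 4 receptors were higher and 1 lower, and 1 secreted factor was lower; above the lower quartile, 3 were. Higher secreted factors numbered 4 with median centring, 3 with quantile normalization again, 2 with the gene-level fit and 3 with the mean of probe sets. Leaving out each sample gave 9 to 10 members higher and 10 to 11 lower, 11 to 13 and 13 to 14 probe sets, 4 to 7 and 5 to 7 receptors, 1 to 2 and 4 to 6 secreted factors, and 12 to 13 and 6 to 7 NF-kB genes. The receptors fell to 4 higher without parental replicate 2 and 5 without WZR6 replicate 1. Scaling changed the balance of all probe set calls: 47.4% were lower as reported, 52.6% with cyclic loess and 39.3% with median centring.

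Same-numbered samples were treated as unpaired, since the labels state no pairing. Correlations of their deviations from group means were -0.012, 0.115 and 0.226, the last being the highest of any pair. Not every sample correlated best with its own number. With 3 samples per group, these values cannot decide whether samples shared a batch. With the replicate block, 9029 probe sets were called against 9131, all 19 members were called, CSF3, IL15 and IL6 were added, and 2 secreted factors were higher. Without detection calls, signal over background could not be judged, which limits the folds of genes with a mean below the lower quartile, CXCL10, CXCL11 and IL7 among them.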
